A study of Homo sapiens with 6 samples.

Results

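Nonsense-mediated decay (NMD) is the pathway that removes messenger RNAs on which ribosomes stop too early, and also trims a set of normal messages. The genes described here are 9 core factors of that pathway, taken by name: UPF1, UPF2, UPF3A, UPF3B, SMG1, SMG5, SMG6, SMG8 and SMG9. All 9 were found among the 62700 genes of the deposited gene table, and all 9 were among the 14292 genes with enough signal to be tested.

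The cells were TCam-2, an established human line from a testicular seminoma, and the measured material was polyadenylated RNA. The groups of 2 libraries each were untransduced cells (WT), cells transduced to express GFP with a FLAG tag (GFP), and cells transduced to express RBMXL3 with a FLAG tag (RBMXL3), with both of the first serving as controls. RBMXL3 is an intronless relative of the RNA-binding protein RBMX, and the study asked which genes change in level or in splicing when it is expressed. The labels name no promoter, dose or clone for the transduction and do not say whether the 2 libraries of a group came from separate cultures, so the p-values measure only the spread between these libraries.

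As background, UPF1 is the RNA helicase at the centre of NMD. UPF2 and a UPF3 protein link it to the exon junction complex that splicing leaves on a message, so that a stop codon well upstream of such a complex is read as premature. The kinase SMG1, held in check by SMG8 and SMG9, then phosphorylates UPF1, and phosphorylated UPF1 recruits the endonuclease SMG6 and the adaptor SMG5, which helps to bring in decapping and deadenylation enzymes. Several messages that encode NMD factors are themselves known NMD substrates.

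The libraries held between 17685680 and 29318007 reads assigned to genes, and the RBMXL3 libraries were the shallowest, at 17685680 and 21023355 reads. RBMXL3 itself had 0 reads in the 4 control libraries, where 0 allows up to 3 reads, and 84 and 68 reads in the RBMXL3 libraries. The seminoma marker genes summed to between 105284 and 123901 normalised reads per library, and the 4 leukocyte markers to at most 2.12. The 3 embryonal carcinoma markers, carried mainly by DNMT3L, summed to 867 and 960 in WT, between 1427 and 1544 in GFP and between 1181 and 1255 in RBMXL3, with no gene of the list at 0 in all libraries. The stromal marker list, carried mainly by COL1A2, summed to 9094 and 10230 in WT, between 12691 and 14344 in GFP and between 13355 and 14117 in RBMXL3, with no gene of the list at 0 in all libraries. The part of both lists in the differences between groups given here, and that of the lower depth of the RBMXL3 libraries, was not tested. Values called normalised read counts are read counts that the authors had divided by 1 size factor per library, and a change called log2 is a difference of log2(value + 1) after dividing all values by a common 23.9. In bulk RNA, fewer cells of a type and less RNA per cell cannot be told apart.

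At the level of whole genes, 6 of the 9 NMD factors overlapped between the RBMXL3 libraries and the pooled 4 controls, and 3 stood apart. UPF3A was higher in both RBMXL3 libraries than in all 4 controls, and UPF2 and SMG8 were lower in both than in all 4. UPF3A rose against GFP by 0.32 on the log2 scale and UPF2 fell against WT by 0.39, but neither passed the test against the other control. With limma and Benjamini-Hochberg adjustment over all genes, 1 of the 9 factors was called against GFP, where 20.9% of all genes tested were called, and 1 of 9 against WT, where 29.9% were called. Both counts are below the share of all genes, and both comparisons use the same RBMXL3 libraries. Among all genes tested, 22.5% had both RBMXL3 libraries above all 4 controls and 23.6% had both below them, beside 1 and 2 of the 9 factors.

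**Figure D1:**
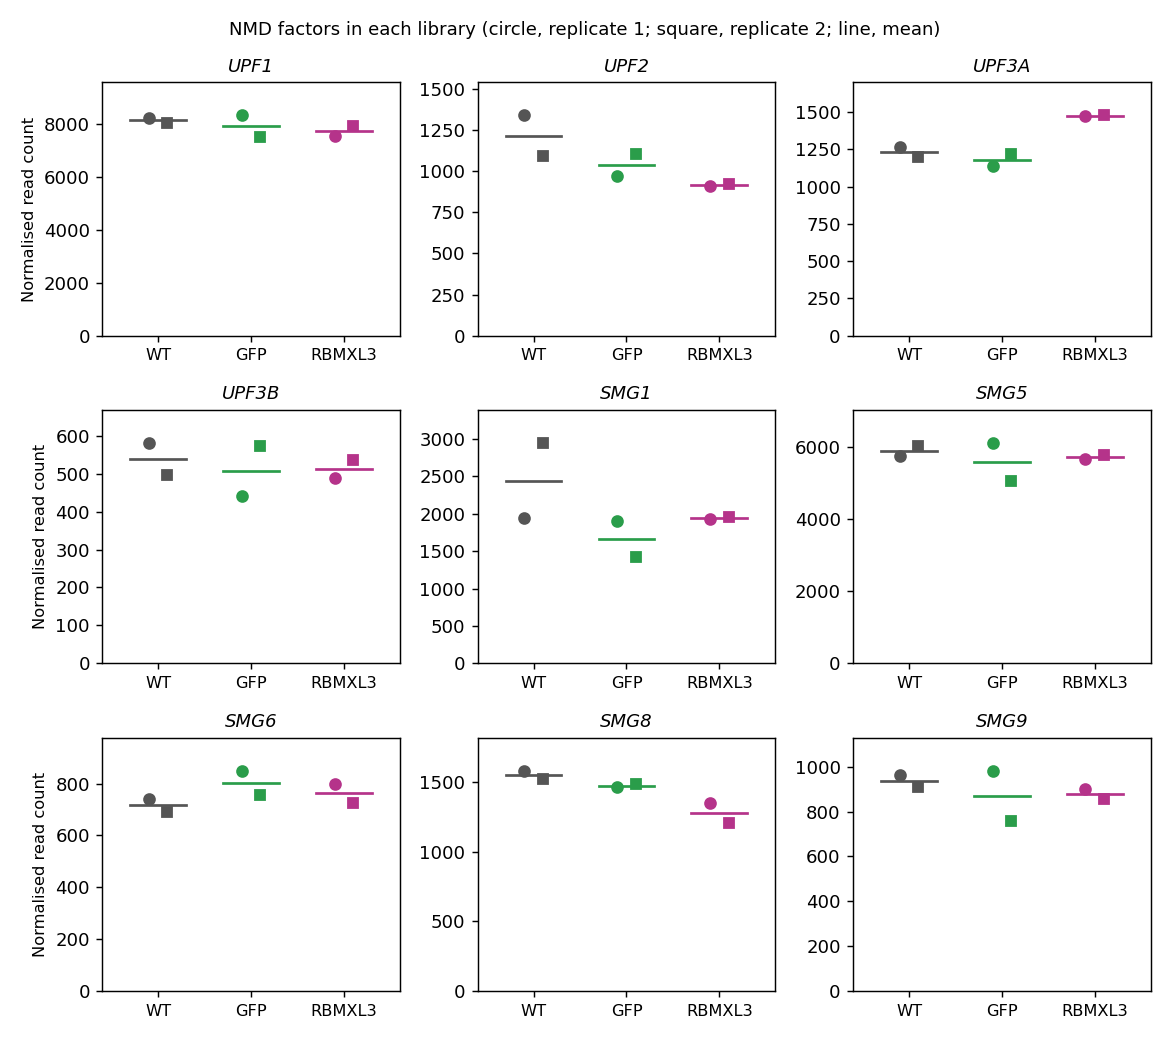
Deposited normalised read counts (y axis, starting at 0) of the 9 NMD factors in the WT, GFP and RBMXL3 libraries; each point is 1 library and each line the mean of 2. The RBMXL3 points of UPF3A, at 1474 and 1478, lie above all 4 control points, and those of UPF2 and SMG8 lie below them.

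No factor was called in the same direction against both controls by limma, edgeR or DESeq2, which called 13.7%, 13.2% and 11.4% of all genes there. At an unadjusted p under 0.05, limma gave 1 factor against GFP and 3 against WT, beside 34.7% and 41.7% of all genes. The median log2 change of the 9 factors was 0.02 against GFP and -0.07 against WT, beside medians of 0.00087 and -0.01 over all genes tested. Between the control groups, GFP against WT, limma called 0 of the 9 factors, where 3.67% of all genes were called, and had 1 factor at an unadjusted p under 0.05, where 22.3% of all genes were. edgeR called 0 there, where it called 3.32% of all genes, and DESeq2 called 1 factor, SMG1, and 4.86% of all genes.

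**Figure D2:**
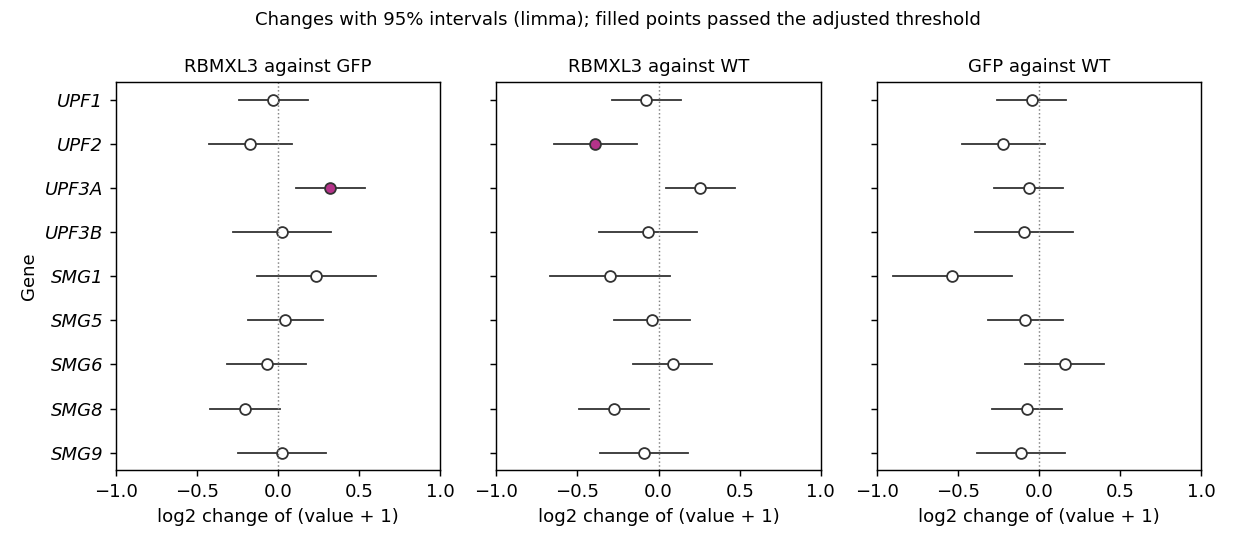
Log2 change of each NMD factor (x axis) in the 3 comparisons, with 95% intervals from limma; filled points passed an adjusted p of 0.05. Only UPF3A against GFP (0.32) and UPF2 against WT (-0.39) are filled, and the SMG1 interval is the widest in each panel.

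UPF1 (19:18831938-18868236, plus strand, GRCh38), the helicase, had 8234 and 8048 normalised reads in the WT libraries, 8317 and 7497 with GFP, and 7551 and 7909 with RBMXL3. Both RBMXL3 libraries were below both WT libraries and inside the range of the GFP libraries, and no other factor had as many reads. Its log2 change was -0.03 against GFP (95% interval -0.24 to 0.18) and -0.07 against WT (-0.29 to 0.14).

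UPF2 (10:11920022-12043170, minus strand), the bridge between UPF1 and the UPF3 proteins, had 1339 and 1091 normalised reads in the WT libraries, 973 and 1102 with GFP, and 910 and 922 with RBMXL3. Both RBMXL3 libraries were below every control library, while WT and GFP overlapped through their replicate 2 values. The mean fell from 1215 ± 175 (SD, n = 2) in WT to 916 ± 8.1 (SD, n = 2) in RBMXL3, a log2 change of -0.39 (standard error 0.12, limma adjusted p = 0.0261). Against GFP, whose mean was 1037 ± 91.1 (SD, n = 2), the log2 change was -0.17 (limma adjusted p = 0.325). The call against WT rested on WT replicate 1: without that library the log2 change was -0.25 (limma adjusted p = 0.243). Without RBMXL3 replicate 1 or 2 it was -0.38 and -0.40 (limma adjusted p = 0.155 and 0.147). In TPM summed over its transcripts, UPF2 had 13.7 and 11.6 in the WT libraries, 10.3 and 10.6 with GFP, and 10.8 and 11.4 with RBMXL3, and the log2 change against WT was -0.17 (limma adjusted p = 0.376).

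UPF3A (13:114281584-114305817, plus strand) and UPF3B are paralogs that share the place between UPF2 and the exon junction complex. UPF3B is usually the more active of the pair in NMD, and UPF3A protein is known to build up when UPF3B is lost. UPF3A had 1263 and 1201 normalised reads in the WT libraries, 1138 and 1218 with GFP, and 1474 and 1478 with RBMXL3. The control libraries overlapped between 1138 and 1263 reads, and both RBMXL3 libraries were above them. The means were 1232 ± 44.3 for WT, 1178 ± 57.2 for GFP and 1476 ± 2.6 for RBMXL3 (SD, n = 2 each). The log2 change was 0.32 against GFP (standard error 0.098, 95% interval 0.11 to 0.53, limma adjusted p = 0.0359), which is 1.25 times the GFP mean. Against WT it was 0.26 (95% interval 0.04 to 0.47, limma adjusted p = 0.0654), 1.20 times the WT mean, and without GFP replicate 1 or 2 its limma adjusted p there was 0.0134 or 0.0136. The limma adjusted p against GFP rose above 0.05 without WT replicate 1 (0.0545), WT replicate 2 (0.0543), RBMXL3 replicate 1 (0.249) or RBMXL3 replicate 2 (0.269), while the change itself lay between 0.27 and 0.37. In the fit that scaled every library to the same total, UPF3A passed against both controls, at 0.44 and 0.36, a scaling that moved the median of all genes by 0.11 against GFP and 0.099 against WT.

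UPF3B (X:119805311-119852998, minus strand) had 581 and 496 normalised reads in the WT libraries, 441 and 573 with GFP, and 488 and 536 with RBMXL3. Its groups overlapped throughout, with log2 changes of 0.02 against GFP (95% interval -0.28 to 0.33) and -0.07 against WT (-0.37 to 0.24). Per transcript length, the summed TPM of UPF3A was 2.78 and 3.30 times that of UPF3B in the WT libraries, 3.27 and 3.01 times with GFP, and 4.10 and 3.50 times with RBMXL3. The ratio was thus higher in both RBMXL3 libraries than in the controls, with the higher value coming from the library where UPF3B was lower. The UPF3A sums include transcripts annotated as not coding. In coding transcripts alone, UPF3A had 17.5 and 11.3 TPM in WT, 10.1 and 11.4 with GFP, and 30.1 and 33.0 with RBMXL3. UPF3B had 15.4 and 13.2, 11.9 and 13.9, and 13.3 and 15.2 in the same order.

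SMG1 (16:18804853-18926454, minus strand), the kinase that phosphorylates UPF1, varied most among the factors. It had 1942 and 2946 normalised reads in the WT libraries, 1901 and 1425 with GFP, and 1924 and 1960 with RBMXL3. WT replicate 2 was 1.52 times WT replicate 1 and GFP replicate 2 was the lowest, while the RBMXL3 libraries lay between them. The log2 change was 0.24 against GFP (limma adjusted p = 0.352), -0.30 against WT (limma adjusted p = 0.202) and -0.53 for GFP against WT (limma adjusted p = 0.0953). Without GFP replicate 1 the last was -0.74 (limma adjusted p = 0.0280). SMG1 has near-identical duplicated copies nearby on its chromosome, and how the authors' counting shared reads among them is not given in the sources used here. The listed copies had at most 34.4 normalised reads in any library, and adding them to SMG1 gave -0.52 for GFP against WT.

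SMG8 (17:59209400-59215247, plus strand), which restrains SMG1 together with SMG9, had 1584 and 1521 normalised reads in the WT libraries, 1465 and 1485 with GFP, and 1349 and 1209 with RBMXL3. Both RBMXL3 libraries were below all controls, with group means of 1553 ± 44.6, 1475 ± 14.7 and 1279 ± 98.9 (SD, n = 2 each). The log2 change of -0.28 against WT missed the threshold (limma adjusted p = 0.0529), as did that of -0.20 against GFP (limma adjusted p = 0.167). Without either GFP library, the limma adjusted p against WT was 0.0136, with the same log2 change of -0.28. In summed TPM the order was not kept, at 32.2 and 35.2 in the WT libraries, 27.6 and 32.0 with GFP, and 30.3 and 29.4 with RBMXL3.

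SMG9 (19:43727992-43754990, minus strand), the partner of SMG8, had 964 and 909 normalised reads in the WT libraries, 983 and 759 with GFP, and 901 and 854 with RBMXL3. The RBMXL3 values were below both WT libraries and inside the range of the GFP libraries, and the log2 changes were 0.02 against GFP and -0.09 against WT. The kinase complex therefore held 1 member, SMG8, whose RBMXL3 libraries were apart from the controls, and none that passed the limma test.

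SMG6 (17:2059839-2303771, minus strand), the endonuclease that cuts the message near the stop codon, had 739 and 692 normalised reads in the WT libraries, 850 and 754 with GFP, and 800 and 726 with RBMXL3. RBMXL3 overlapped both controls, with log2 changes of -0.07 against GFP and 0.09 against WT. The ends of SMG6 overlap HIC1 and SRR on the opposite strand, and whether the counting used strand is not given in the sources used here. SMG5 (1:156249224-156282825, minus strand), the adaptor for decapping and deadenylation, had 5745 and 6030 normalised reads in the WT libraries, 6104 and 5048 with GFP, and 5671 and 5773 with RBMXL3. The GFP libraries spanned the values of all others, and the log2 changes were 0.04 against GFP and -0.04 against WT.

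Levels of different genes can be compared only per length, which the summed TPM allows. Over the 6 libraries the mean TPM was highest for SMG5 at 72.5, followed by UPF1 at 58.2, UPF3A at 46.0, SMG9 at 36.5, SMG8 at 31.1, UPF3B at 13.9, UPF2 at 11.4, SMG1 at 10.0 and SMG6 at 9.03. Neighbouring genes in this order overlapped in their library ranges, except SMG8 (27.6 to 35.2) and UPF3B (11.9 to 15.6). These sums include transcripts annotated as not coding, and the order differs without them. In coding transcripts alone, SMG8 had 27.1 to 31.4 TPM and SMG9 12.4 to 18.7. UPF3A had 10.1 to 17.5 in the controls, and 30.1 and 33.0 with RBMXL3. UPF1 had 59.7 and 66.2 TPM in the WT libraries, 76.7 and 51.4 with GFP, and 44.5 and 50.4 with RBMXL3, so both RBMXL3 libraries were below all controls on this scale although not in reads. Its TPM log2 change of -0.40 against each control did not pass (limma adjusted p = 0.211 against GFP and 0.194 against WT). On the TPM scale UPF3A passed against GFP at 0.43 (limma adjusted p = 0.0432) and had 0.33 against WT (limma adjusted p = 0.0629). Against GFP 6.93% of all genes were called on this scale, 5.46% higher and 1.47% lower. The other 8 factors did not pass on that scale.

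The largest differences among the NMD factors were in which UPF3A transcripts made up its RNA. Among UPF3A transcripts matched to GENCODE 29, the most abundant in all 4 control libraries was UPF3A-204, annotated as not coding. In both RBMXL3 libraries it was the coding transcript UPF3A-202. In WT replicate 1 the lead was slight, at 12.7 TPM for UPF3A-204 and 12.6 for UPF3A-202. A second coding form, UPF3A-201, lacks an in-frame cassette exon of 99 bases that UPF3A-202 holds. UPF3A-204 lacks an exon of 56 bases that UPF3A-202 holds and has in its place 29 bases added in front of the next exon, and the annotated forms also differ at their 5′ ends. These stretches are printed from the GRCh38 genome and the GENCODE 29 annotation, on the plus strand, each with 20 transcript bases on either side in lower case and the stretch itself in capitals. The first is at chr13:114286302-114286400, the second at chr13:114291489-114291544 and the third at chr13:114291605-114291633.
UPF3A-202 cassette exon: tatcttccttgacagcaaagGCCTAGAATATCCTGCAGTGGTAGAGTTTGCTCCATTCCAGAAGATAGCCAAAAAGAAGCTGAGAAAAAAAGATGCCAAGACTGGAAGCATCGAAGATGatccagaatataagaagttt
UPF3A-202 exon absent from UPF3A-204: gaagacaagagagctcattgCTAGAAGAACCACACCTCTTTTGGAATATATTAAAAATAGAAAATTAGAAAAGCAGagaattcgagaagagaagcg
UPF3A-204 added bases: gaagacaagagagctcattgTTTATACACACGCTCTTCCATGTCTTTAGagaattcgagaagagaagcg

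Both lower lines share their flanks, so the sequences differ only in the stretch between the same neighbouring exons. Read in the frame of UPF3A-202, the first stop of UPF3A-204 is the TAG that ends the added bases, and it lies 615 bases upstream of the last exon junction of UPF3A-204. The annotated start of UPF3A-204, at 114286385, lies inside the cassette exon, so its annotated form holds no start of the UPF3A-202 reading frame.

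UPF3A-202 (2387 bases, 1428 of them coding) had 12.6 and 9.53 TPM in the WT libraries, 7.52 and 10.4 with GFP, and 20.7 and 23.2 with RBMXL3. UPF3A-204 (1791 bases) went the other way, with 12.7 and 17.4 TPM in the WT libraries, 20.3 and 17.1 with GFP, and 8.19 and 6.23 with RBMXL3. For both transcripts the RBMXL3 libraries lay outside the range of all 4 controls. UPF3A-201 had 4.43 and 1.73 TPM in the WT libraries, 2.61 and 0 with GFP, and 8.57 and 9.10 with RBMXL3, which were again above all controls. The other 9 matched UPF3A transcripts together had 13.2 and 15.0 TPM in the WT libraries, 8.50 and 14.3 with GFP, and 16.8 and 16.1 with RBMXL3.

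**Figure D3:**
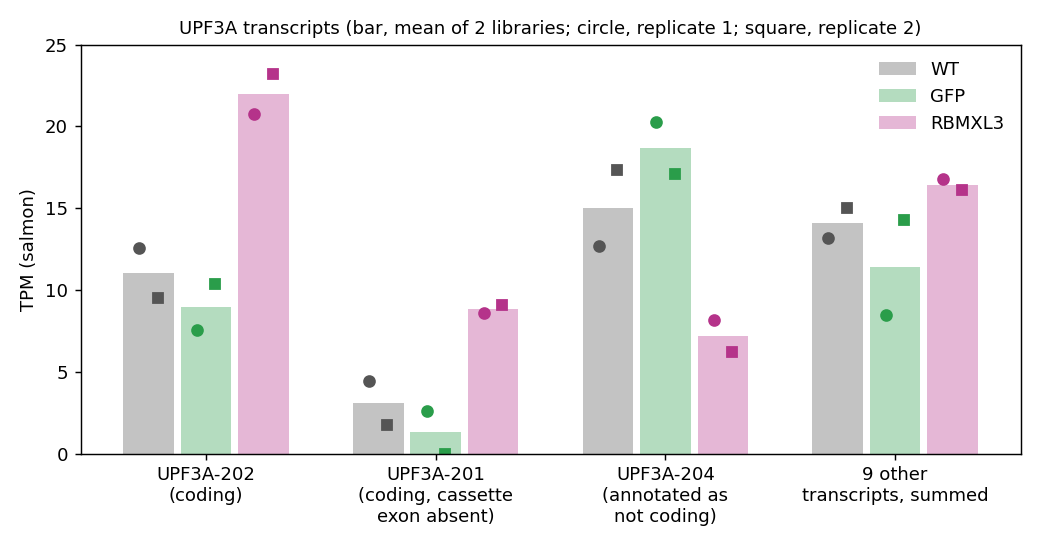
TPM (y axis) of UPF3A-202, UPF3A-201, UPF3A-204 and the sum of the 9 other UPF3A transcripts; bars are means of 2 libraries and points are libraries. The RBMXL3 points of UPF3A-202, at 20.7 and 23.2, lie above all controls, and those of UPF3A-204, at 8.19 and 6.23, lie below them.

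Shares were taken of the UPF3A TPM in transcripts matched to GENCODE 29, so any unmatched transcript is left out. UPF3A-202 took 29.4% and 21.8% in the WT libraries, 19.3% and 24.8% with GFP, and 38.2% and 42.5% with RBMXL3. UPF3A-204 took 29.6% and 39.8% in the WT libraries, 52.1% and 40.9% with GFP, and 15.1% and 11.4% with RBMXL3. Among the transcripts of the 9 factors that passed the filter, only these differed by at least 10 percentage points in the same direction from both control means. How often transcripts of all genes met this rule was not tested. The same holds for transcripts with both RBMXL3 libraries outside the range of the controls, so such a separation alone does not set a transcript apart. For whole genes, 46.1% of all those tested had both RBMXL3 libraries outside that range. Annotated coding transcripts together made up 40.9% and 25.8% of UPF3A TPM in the WT libraries, 26.0% and 27.4% with GFP, and 55.5% and 60.5% with RBMXL3. In TPM, the coding transcripts had 17.5 and 11.3 in the WT libraries, 10.1 and 11.4 with GFP, and 30.1 and 33.0 with RBMXL3. The transcripts annotated as not coding had 25.3 and 32.4 in the WT libraries, 28.8 and 30.3 with GFP, and 24.2 and 21.6 with RBMXL3, so the higher UPF3A total in RBMXL3 libraries lay in its coding transcripts.

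Transcript usage, the change of a transcript relative to the others of its gene, was compared by diffSplice, a limma routine, on log2(TPM + 1). The test covered 7 of the 9 factors, because UPF2 and UPF3B had fewer than 2 transcripts above the filter of 1 TPM in 2 libraries. Of these, limma diffSplice called UPF3A against GFP (adjusted p = 0.0138, Simes method), where 12.0% of all genes tested were called. Against WT its limma diffSplice adjusted p was 0.239, with 12.0% of all genes called. Between GFP and WT 0 of the 7 factors were called, with 0 also at an unadjusted p under 0.05 and 0 by the test of transcript shares, where 1.72% of all genes were called by diffSplice and 0.991% by the shares. The lowest adjusted p of the 6 other factors was 0.334 against GFP, 0.573 against WT and 0.806 between the controls in limma's diffSplice.

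By transcript, usage of UPF3A-204 fell against GFP by 2.09 on the log2 scale (limma diffSplice adjusted p = 0.0081) and usage of UPF3A-201 rose by 2.01 (limma diffSplice adjusted p = 0.0109). Of all transcripts tested, 4.45% were called in that comparison. Usage of UPF3A-202 differed by 0.71 against GFP and 0.76 against WT, neither called in limma's diffSplice (adjusted p = 0.543 and 0.525). Usage of UPF3A-204 against WT differed by -1.37 (limma diffSplice adjusted p = 0.119) and that of UPF3A-201 by 1.22 (limma diffSplice adjusted p = 0.188), neither called. The calls depended on the method: a limma test of transcript shares called neither comparison for UPF3A (adjusted p = 0.222 and 0.453), where it called 3.02% and 3.19% of all genes. With transcripts of a mean TPM of at least 5, which left UPF3A-202 and UPF3A-204, diffSplice called UPF3A against GFP (adjusted p = 0.0019) and against WT (adjusted p = 0.0080), beside 17.5% and 17.1% of all genes. Without RBMXL3 replicate 1 or replicate 2, UPF3A was not called against GFP. TPM keeps no depth, so no counting interval can be set on these transcript values, and splice junctions were not analysed here.

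The split between UPF3A-202 and UPF3A-201, the form without the cassette exon, differed less. Other UPF3A transcripts are left out of it, so inclusion of the exon over the whole gene was not measured. UPF3A-201 made up 26.1% and 15.4% of UPF3A-201 and UPF3A-202 together in the WT libraries. Its part was 25.8% and 0% with GFP, and 29.2% and 28.2% with RBMXL3. The RBMXL3 libraries were above all controls, by little over WT replicate 1 and GFP replicate 1, and the 0% in GFP replicate 2 is a TPM listed at 0.

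UPF1 and UPF3B each have a second coding form that adds a short in-frame stretch. In UPF1 it is 33 bases at chr19:18853072-18853104 on the plus strand, held by UPF1-207 and absent from UPF1-201, and it enlarges the regulatory loop of the helicase. In UPF3B it is 39 bases at chrX:119840646-119840684 on the minus strand, held by UPF3B-201 and absent from UPF3B-202. Both are printed as above, 5′ to 3′ on the strand of the gene, with the added stretch in capitals.
UPF1-207 added stretch: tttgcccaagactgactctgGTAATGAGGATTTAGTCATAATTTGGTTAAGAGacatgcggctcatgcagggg
UPF3B-201 added stretch: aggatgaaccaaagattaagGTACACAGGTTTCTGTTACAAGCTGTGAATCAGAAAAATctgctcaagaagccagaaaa

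UPF1-207 made up 37.5% and 26.0% of UPF1-201 and UPF1-207 together in the WT libraries, 19.8% and 31.1% with GFP, and 33.9% and 39.4% with RBMXL3. The RBMXL3 libraries were above both GFP libraries and overlapped WT, whose replicates were as far apart as 37.5% and 26.0%. UPF1-201, the most abundant UPF1 transcript, had 36.8 and 48.1 TPM in the WT libraries, 59.4 and 35.1 with GFP, and 29.3 and 29.8 with RBMXL3, so the RBMXL3 libraries were below all controls. UPF3B-201 was the minor UPF3B form in every library, at 7.00% and 2.23% of both forms in the WT libraries, 4.31% and 3.88% with GFP, and 3.39% and 0% with RBMXL3.

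The leading transcripts of most other factors overlapped between the RBMXL3 libraries and the pooled 4 controls. UPF2-202 had between 9.51 and 13.7 TPM, UPF3B-202 between 11.4 and 15.2, SMG5-201 between 57.0 and 78.6 and SMG8-201 between 22.9 and 26.2. SMG6-201 had 6.93 and 6.35 TPM with RBMXL3, above the 5.40 to 5.81 of the controls. SMG1-202 ranged from 4.66 in GFP replicate 2 to 10.8 in WT replicate 2, the libraries that were also lowest and highest in SMG1 reads. SMG9 was unlike the others in that its leading transcript, SMG9-210, is a short retained-intron form of 538 bases that is not coding, with 14.9 to 23.1 TPM beside 10.8 to 17.1 for the coding SMG9-211. Of the 92 transcripts of the 9 factors in the deposited table that matched GENCODE 29, 26 passed the filter. The 3 that GENCODE 29 annotates as NMD substrates did not pass it, with at most 0.755 TPM.

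Beyond the 9 core factors, other listed genes with a part in NMD were lower in RBMXL3 cells more often than higher. The lists were chosen with earlier results of these data known. In a list of 17 further NMD factors, limma called 6 lower and 0 higher against GFP and 7 lower and 0 higher against WT, with 5 lower against both. Of all genes, 10.4% and 15.3% were called lower in the same comparisons and 6.86% against both. The list medians were -0.26 and -0.30. Those lower against both include RUVBL1, an ATPase that acts on SMG1 kinases (-0.49 against GFP and -0.43 against WT), ETF1, the release factor that reads stop codons (-0.38 and -0.56), its partner GSPT1 (-0.33 and -0.48), and the poly(A)-binding protein PABPC4 (-0.36 and -0.48). Without RBMXL3 replicate 1 or replicate 2, the count lower was 0 against GFP and 2 against WT, without WT replicate 1 it was 3 and 1, and with every library at the same total 1 was lower and 1 higher against GFP. In summed TPM 1 was lower against GFP and 4 against WT, beside 1.47% and 4.52% of all genes. The list medians there were -0.048 and -0.20. The share of all genes called is not given for fits without 1 library or with another scaling, here and in the lists below. Changes of these counts can therefore not be read as particular to a list. Without RBMXL3 replicate 1 or 2 the list medians against GFP were -0.23 and -0.28, and without WT replicate 1 that against WT was -0.18. ETF1 had 10667 and 10274 normalised reads in the WT libraries, 8599 and 9956 with GFP, and 7197 and 7003 with RBMXL3, with both RBMXL3 libraries below all controls.

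Of 10 exon junction complex genes, 2 were lower against both controls and 1 was higher against WT, beside 6.86% and 14.6% of all genes. Without any 1 of the WT or RBMXL3 libraries, the counts against WT were 0 higher and 1 lower, and without either GFP library 4 were lower. MAGOH, a core subunit, had 2086 and 2214 normalised reads in the WT libraries, 2578 and 2306 with GFP, and 1504 and 1510 with RBMXL3, and fell by 0.69 against GFP and 0.51 against WT. EIF4A3, the core helicase that anchors the complex on RNA, fell by 0.62 and 0.35. PYM1, which takes the complex apart, rose against WT by 0.46 and had 0.15 against GFP. The list medians were -0.08 and -0.13, and at the same total the first was 0.035.

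Of 37 enzymes and cofactors of messenger RNA decay, 36 were tested, and limma called 2 higher and 6 lower against GFP and 1 higher and 9 lower against WT, beside 10.5% higher and 10.4% lower, and 14.6% higher and 15.3% lower, of all genes. The medians were -0.07 and -0.11. At the same total per library the count against GFP was 3 higher and 1 lower, with a median of 0.053, and without RBMXL3 replicate 1 or replicate 2 it was 0 higher, with 0 or 1 lower. Against WT only 1 was lower without WT replicate 1, without RBMXL3 replicate 1, without RBMXL3 replicate 2 and in summed TPM, and 4 without WT replicate 2. In summed TPM, 4.52% of all genes were called lower against WT. Lower against both controls were 3 of the 36, beside 6.86% of all genes. They were the nuclear exonuclease XRN2 (-0.40 and -0.47), the deadenylase PARN (-0.38 and -0.60) and CNOT9, a CCR4-NOT deadenylase subunit (-0.30 and -0.32). PATL1, a decapping activator, had -0.30 against GFP, not called, and fell by 0.44 against WT. XRN1, the cytoplasmic exonuclease that degrades what SMG6 leaves, was named after its values were seen: it had 891 and 891 normalised reads in the WT libraries, 660 and 598 with GFP, and 846 and 910 with RBMXL3. It rose by 0.47 against GFP and had -0.02 against WT, and it was lower in GFP than in WT by a log2 change of -0.49, so the GFP libraries were the ones apart.

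**Figure D4:**
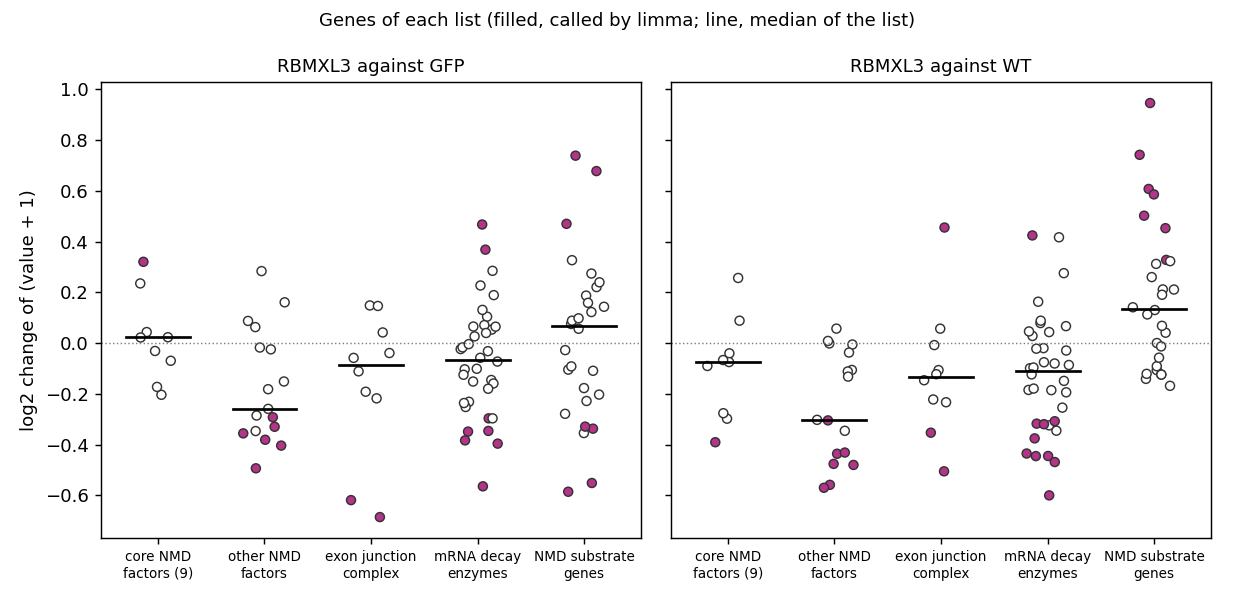
Log2 change of (value + 1) on the y axis for each tested gene of 5 lists, against GFP (left) and WT (right); filled points were called by limma and lines are list medians. The other NMD factors have medians of -0.26 and -0.30, below the 0.022 and -0.075 of the 9 core factors.

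Of 29 genes with transcripts known as NMD substrates, 28 were tested. Against GFP 3 were higher and 4 lower, and against WT 7 were higher and 0 lower, with medians of 0.07 and 0.14, beside 10.5% and 14.6% of all genes called higher and 10.4% and 15.3% called lower. The count lower against GFP was 0 in summed TPM (with 4 higher), 2 at the same total (with 5 higher), 2 under quantile normalization and without WT replicate 1 or 2, 6 without GFP replicate 2, and 1 or 0 without RBMXL3 replicate 1 or 2. In summed TPM, 1.47% of all genes were called lower and 5.46% higher against GFP. GADD45B, a stress-response gene, had 260 and 264 normalised reads in the WT libraries, 244 and 283 with GFP, and 483 and 428 with RBMXL3. It rose by 0.74 against each control. The asparagine synthetase gene ASNS, at 12.7 and 20.1 in the WT libraries, 30.5 and 19.1 with GFP, and 57.9 and 49.2 with RBMXL3, rose by 0.68 against GFP and 0.95 against WT. ASNS is a low gene, and this log2 scale understates the changes of such genes. CARS1, a transfer RNA synthetase gene, rose by 0.47 and 0.61. EPB41L4A-AS1, a non-coding host gene, rose against WT by 0.59 and had 0.33 against GFP, not called. Without RBMXL3 replicate 1 or 2, the count higher against WT was 3 and 4, without WT replicate 1 it was 3, and at the same total or without either GFP library it was 10. ASNS and CARS1 are also known targets of the amino acid stress response, and only whole-gene counts entered these changes. GFP and WT differed in this list too, with a median log2 change of 0.15, beside -0.0078 over all genes tested. Of the 28 genes, 22 were above 0 there, beside 19 in RBMXL3 against WT. edgeR called 2 and DESeq2 6 of them higher in GFP, beside 1.62% and 2.47% of all genes. On summed TPM, limma called 0 of all genes tested in that comparison. limma called 2 higher in GFP, beside 1.76% of all genes: the host gene GAS5 by 0.61 (limma adjusted p = 0.0438) and SAT1 by 0.45 (limma adjusted p = 0.0416). These calls were lost, with 0 higher, under quantile normalization, at the same total, in summed TPM and without any 1 of the WT or RBMXL3 libraries, and without either GFP library 7 genes were higher.

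For UPF1, the tested genes whose values followed it most closely over the 6 libraries were TIAM1 (Pearson r = 0.994), ADD1 (0.993) and ZKSCAN3 (0.989). These are descriptions over 6 libraries in 3 groups, picked as the highest of all tested genes.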

How the data were processed

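Polyadenylated RNA from 6 TCam-2 libraries was analysed. Per the labels' protocols, libraries came from a stranded mRNA kit, and the submitters' processing notes name Trim Galore 0.6.10, STAR 2.7.11a, Salmon 1.10.2, DESeq2 and build GRCh38 (hg38). The annotation and the use of strand in counting are not given in the sources used here. The deposited gene values are a normalised signal: all of 145320 nonzero values were whole multiples of 1 step per library (tolerance 0.01), so 100% came out as whole reads, recovered by dividing out each library's step. The deposited transcript values are TPM, in which depth is lost. Of the 251955 transcripts listed, 80.0% were found in GENCODE 29 by identifier. Only these entered the summed TPM, the shares and the usage tests, so any unmatched transcript of a gene is left out.

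The planned test assumed CPM, so gene values were divided by 23.9, which gives them the mean total of CPM, and kept at 1 or more in at least 2 libraries. limma 3.58.1 (R 4.3.3) fitted log2(value + 1) for all 6 libraries with a trend and 1 coefficient per group, two-sided, with Benjamini-Hochberg adjustment over 14292 genes and calls under 0.05. This scale understates changes of low genes. diffSplice of limma tested transcript usage over 36184 transcripts of 8882 genes. edgeR 4.0.16 (quasi-likelihood) and DESeq2 1.42.0 on the recovered reads, other scalings, filters and pseudocounts, a replicate block and leaving out libraries were alternatives. On those reads edgeR called 19.9% of genes against GFP and 29.1% against WT, or 2848 and 4157 genes. The floor of 3 reads covers counting error alone, because the reads carry no molecular identifiers. Scripts were tested on simulated data.

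The members and lists were chosen with earlier results of these data known. All 9 members were named, with each member's leading transcript and transcripts whose share differed by 10 points or more from both controls, up to 4 genes of each other list by the smaller change among those called against both controls and then 1 control, and the 3 genes most like UPF1. Of the 92 member transcripts, 10, UPF3A-202 among them, carry another version number in the deposited table than in GENCODE 29, so their exact ends may differ from the coordinates given. All 62700 gene identifiers had a symbol. The values of 1 gene of the list of other NMD factors are not reported here.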

Additional observations from a re-analysis of the deposited data

How the results depend on the processing

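UPF3A kept its direction in 17 of 17 alternatives against GFP (0.27 to 0.44, adjusted p 0.0082 to 0.269, called in 10) and against WT (0.22 to 0.36, called in 5), as did UPF2 against WT (-0.54 to -0.17, called in 11).

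Against GFP the count of 1 called factor became 0 with no filter, with only the 2 groups compared, and with a replicate block, and it ranged from 0 to 1 when a library was left out. Against WT the count of 1 became 0 with no filter and with summed TPM, 2 with quantile normalization (UPF2 and UPF3A) and 3 with only the 2 groups compared (UPF2, UPF3A and SMG8), and ranged from 0 to 3 without single libraries. Scaling to the same total gave 1, but it was UPF3A in place of UPF2. Between GFP and WT the count of 0 became 1 (SMG1) with DESeq2 and with the GFP numbers crossed in the block, and 0 to 1 without single libraries. Against both controls it became 1 (UPF3A) with quantile normalization and with the same total, and 0 to 1 without single libraries.

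For transcript usage the count of 1 against GFP became 0 with a pseudocount of 0.1 and with the test of shares, and 0 to 1 without single libraries. At a mean TPM of at least 5, UPF3A-202 and UPF3A-204 were the only UPF3A transcripts left, and both were called against both controls. Their usage values mirror each other, so these calls are 1 test per comparison. Against WT the 0 became 1 in that setting. It stayed 0 without single libraries.

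Differences that were not called turned sign as follows, and the cause was not tested (names ending in a number after a dash are transcripts, with their usage). Quantile normalization gave, against GFP, UPF1 0.082 and UPF3B -0.016, and, against WT, UPF1 0.028 and SMG5 0.074. The same total gave, against GFP, UPF1 0.089 and SMG6 0.047, and, against WT, UPF1 0.034, UPF3B 0.038, SMG5 0.068 and SMG9 0.016. Summed TPM gave, against GFP, UPF2 0.075, SMG6 0.083 and SMG8 0.0067, and, against WT, UPF3B 0.011 and SMG5 0.047. A pseudocount of 0.1 gave, against WT, SMG1-202 -0.40. TPM above 0 in 2 libraries gave, against WT, SMG1-202 -0.20 and SMG5-201 0.29, and, against GFP, SMG8-201 -0.19, and, between GFP and WT, UPF3A-202 -0.082. The test of shares gave, against WT, SMG1-202 -0.046, SMG5-201 0.031 and SMG6-201 -0.025, and, between GFP and WT, SMG5-201 0.0085 and UPF3A-202 -0.041, and, against GFP, SMG8-201 -0.043. A mean TPM of at least 5 gave, between GFP and WT, UPF3A-202 -0.59. Leaving out single libraries also turned signs. The ranges against GFP were UPF1 from -0.11 to 0.044, UPF3B from -0.16 to 0.20, SMG5 from -0.093 to 0.18, SMG6 from -0.15 to 0.014, SMG9 from -0.16 to 0.20, SMG8-201 from -0.67 to 0.72 and SMG9-210 from -0.68 to 0.080. The ranges against WT were UPF3B from -0.18 to 0.042, SMG5-201 from -0.29 to 0.12 and UPF1-201 from -0.70 to 0.048. The ranges between GFP and WT were UPF1 from -0.12 to 0.031, UPF3B from -0.27 to 0.091, SMG5 from -0.22 to 0.052, SMG9 from -0.29 to 0.070, SMG1-202 from -2.26 to 0.23, SMG6-201 from -0.32 to 0.10, SMG8-201 from -0.14 to 1.38, SMG9-210 from -0.25 to 0.50 and UPF3A-202 from -0.16 to 0.25.

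Replicate numbers did not pair the libraries: deviations of same-numbered libraries correlated at -0.16 (WT and GFP), 0.03 (WT and RBMXL3) and -0.09 (GFP and RBMXL3). The block and crossed block were otherwise without effect on the counts. The crossed block was added after seeing the data. An arm left with 1 library was assumed to vary like the others.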
